A study of Mus musculus with 4 samples.

Results

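The transcripts examined here came from 6 repeat names of the ERVL group of endogenous retroviruses, the older relatives of the young MERVL element: MT2A, MT2B, MT2B1, MT2B2, MT2C_Mm and MERVL_2A-int. They were taken by name, as every repeat name of the transposable element (TE) counts that begins with MT2 or MERVL apart from MT2_Mm and MERVL-int, which together make up the young element. No measured value entered this rule, though earlier results of these data were known when it was chosen. The 6 names, of 1072 in all, cover 40901 of the 3658072 listed TE copies. They comprise 13977 copies of MT2B, 10140 of MT2A, 7248 of MT2B1, 3899 of MERVL_2A-int, 3655 of MT2B2 and 1982 of MT2C_Mm. Of these copies, 2348 had at least 5 counts over the 4 libraries and were tested singly.

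An endogenous retrovirus consists of an internal part, which holds the remains of viral genes, between a pair of long terminal repeats (LTRs), which carry the promoter. MT2 elements are LTRs of the ERVL group, and names ending in int are internal parts. Recombination between the LTRs of a provirus removes the internal part, so that most copies in the genome are solitary LTRs. The young LTR MT2_Mm and its internal part MERVL-int are transcribed in the 2-cell embryo and in the rare ESCs that resemble it, where the LTR also serves as a promoter of host genes. The older MT2 LTRs have diverged further from each other. A read can therefore be placed more easily on a single copy of them, and some copies lie within the transcripts of host genes.

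Poly(A) RNA-seq was compared between G3 Terc-/- ESCs (line F35, the genotype without the telomerase RNA gene, derived from matings of the second Terc-/- generation) and WT ESCs (line N12, whose library titles also carry G3). Both lines were of C57BL/6 background and were grown on feeder cells with serum and leukemia inhibitory factor, and no time point or passage was given with the libraries. Each genotype was 1 line with 2 libraries, so that genotype and line cannot be told apart. The study's methods call the libraries of a line biological replicates without saying how they were separated, and the p-values cover only the spread between them.

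The 4 libraries held 18047995 to 22520017 gene counts and 1805047 to 2104586 TE counts. Terc (NCBI gene 21748, chromosome 3 of GRCm38, 96414437 to 96414833) was read 7 and 2 times in WT and had no count in G3 Terc-/- ESCs, where up to 3 counts could be missed by chance of counting. All 16 ESC identity markers were tested, and 12 were higher and 4 lower in G3 Terc-/- ESCs at an adjusted p under 0.05 (edgeR), beside a background of 21.7% higher and 21.8% lower among 14896 genes. Tbx3 (log2 fold change 1.81) and Nanog (1.13) rose, and Dppa5a fell by 0.79 on the log2 scale. Feeder fibroblast markers were present in all libraries. Of 21 tested markers, 10 were higher and 1 was lower. The summed level of the list was 1799 and 1460 CPM of gene counts in WT against 2604 and 2190 in G3 Terc-/- libraries. Most of this sum was Fn1, with 1126 and 992 CPM in WT against 1717 and 1522 in G3 Terc-/- libraries. Vim had 164 and 133 CPM against 326 and 280, so that the sum says little of the other markers. The number of markers that were higher was 17 without WT replicate 1 or without G3 replicate 2, 5 without WT replicate 2 and 3 without G3 replicate 1. It was 4 with DESeq2. Those with the smallest p were Vim (log2 fold change 1.00), Fn1 (0.58) and Col5a1 (0.58), which all rose. The lowest feeder marker, Lum, had 8, 7, 4 and 2 counts, and Col1a1, a defining collagen of fibroblasts, had 1324 and 787 counts in WT against 1415 and 785 in G3 Terc-/- libraries, so that these genotypes overlapped. Because these are bulk samples, a difference in the number of cells of a type and a difference in RNA per cell cannot be told apart.

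Taken as a group, the older MT2 and MERVL_2A copies held a small part of the TE counts in both genotypes. They had 29595 and 30359 counts in WT against 31389 and 27533 counts in G3 Terc-/- libraries. Their share of the TE counts was 1.44% ± 0.00362 (SD, n = 2) in WT against 1.52% ± 0.00398 (SD, n = 2) in G3 Terc-/- ESCs. Both G3 Terc-/- libraries lay above both WT libraries, by 0.0826 percentage points on average, with p = 0.333 in a two-sided exact permutation test, the smallest p that 2 libraries against 2 can give.

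Among the 6 names, MT2B1 and MERVL_2A-int rose in G3 Terc-/- ESCs, and the other four did not pass the test. A name counted as changed at a Benjamini-Hochberg adjusted p under 0.05 over the 917 names tested (edgeR, quasi-likelihood). Of all names tested, 13.2% were higher and 11.6% were lower by this rule, against 2 and 0 of the 6. None of the 6 reached the fold change of 1.5 used in the study's methods, which 5.13% of all names passed with higher and 2.94% with lower levels at an unadjusted P under 0.05. Errors of fitted values are given as the standard error (SE). The log2 fold changes of the 6 names lay between -0.11 and 0.37.

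MT2B1, an LTR, had 2090 and 2106 counts in WT against 2803 and 2431 counts in G3 Terc-/- libraries. This corresponded to 1008 ± 10.2 (SD, n = 2) CPM (scaled by TE counts) in WT against 1352 ± 7.28 (SD, n = 2) CPM in G3 Terc-/- ESCs. MT2B1 thus had a fitted log2 fold change of 0.37 (SE 0.04, adjusted p = 8.18e-05, edgeR), and the genotypes did not overlap. MERVL_2A-int, the only internal part among the 6, had 3142 and 3446 counts in WT against 3978 and 3446 counts in G3 Terc-/- libraries, which was 1582 ± 78.7 (SD, n = 2) CPM against 1918 ± 11.9 (SD, n = 2) CPM. MERVL_2A-int thus had a log2 difference of 0.23 (SE 0.04, adjusted p = 0.00309, edgeR). In CPM, both G3 Terc-/- libraries of MERVL_2A-int lay above both WT libraries.

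The 4 names that did not pass were all LTRs. MT2B, the most abundant, had 15487 and 15568 counts in WT against 15414 and 13835 counts in G3 Terc-/- libraries, and its CPM values overlapped between the genotypes. The fitted value was -0.03 on the log2 scale (SE 0.03, adjusted p = 0.459), and it was 0.04 when the libraries were scaled by their gene counts, so that no direction can be given. Without G3 replicate 2, the log2 fold change of MT2B was -0.05, in a fit that leaves a genotype without replicates. MT2A had 3939 and 4021 counts in WT against 4146 and 3575 counts in G3 Terc-/- libraries, which differed by 0.01 on the log2 scale (SE 0.03, adjusted p = 0.873). MT2B2 had 4220 and 4522 counts in WT against 4238 and 3590 counts in G3 Terc-/- libraries, which gave -0.11 on the log2 scale (SE 0.04, adjusted p = 0.0616). Without G3 replicate 1, the log2 fold change of MT2B2 was -0.12, again without replicates of a genotype. MT2C_Mm, the rarest, had 717 and 696 counts in WT against 810 and 656 counts in G3 Terc-/- libraries, which gave 0.10 on the log2 scale (SE 0.07, adjusted p = 0.329).

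**Figure D1:**
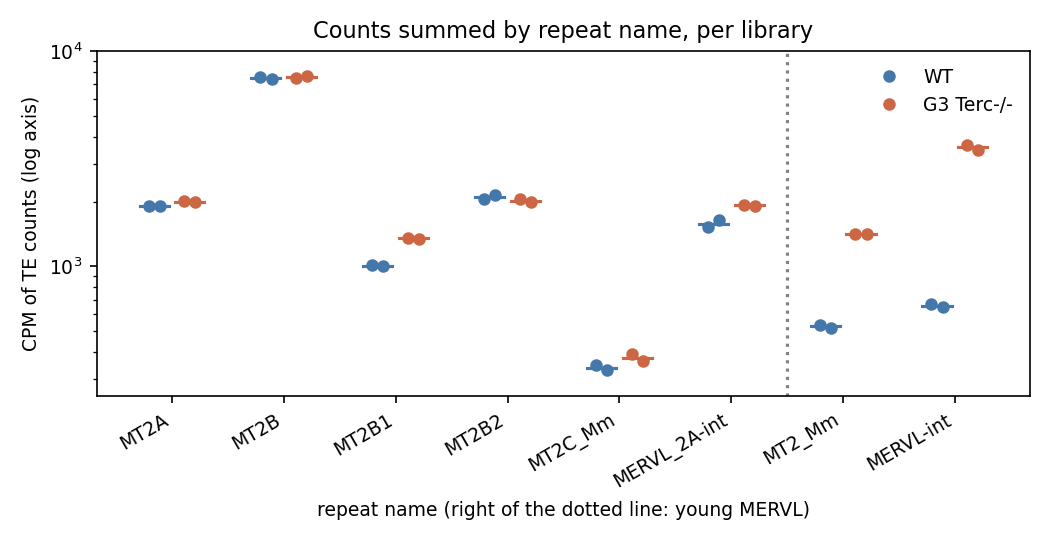
Counts summed by repeat name, in CPM of TE counts on a log axis, for the 2 WT and 2 G3 Terc-/- libraries. Points are libraries and short lines are their means. The members left of the dotted line lie close together in both genotypes. To its right, MT2_Mm and MERVL-int are higher in G3 Terc-/- libraries, by fitted folds of 2.60 and 5.24.

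The young element set the scale for these changes. MT2_Mm had 1099 and 1096 counts in WT against 2931 and 2557 in G3 Terc-/- libraries, a log2 fold change of 1.38, and MERVL-int had 1374 and 1365 against 7585 and 6257, a log2 fold change of 2.39. To test whether the older names changed differently, the log2 CPM of each name minus that of the young name in the same library was compared between genotypes with limma. The log2 change of MT2B1 minus that of MT2_Mm was -1.002 and that of MERVL_2A-int minus MT2_Mm -1.15, and for the other four this difference lay between -1.48 (MT2B2) and -1.27 (MT2C_Mm). All 6 differences to MT2_Mm passed the test, with adjusted p between 0.000246 and 0.000374 (limma). Against MERVL-int the differences lay between -2.49 (MT2B2) and -2.01 (MT2B1), and all 6 passed as well. These are not particular to the older names, since 96.7% of all other names tested changed less than MT2_Mm and 99.6% less than MERVL-int by the same rule.

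The older names were also compared with MT2B1, a comparison added after their values had been seen. The change of MERVL_2A-int minus that of MT2B1 was -0.14 (SE 0.07, adjusted p = 0.164, limma), which does not show that they changed alike. MT2A, MT2B, MT2B2 and MT2C_Mm changed less than MT2B1, with differences of -0.36, -0.40, -0.48 and -0.27 on the log2 scale (adjusted p = 0.0152, 0.0139, 0.0133 and 0.0418, limma). By this rule 50.9% of the names tested changed less than MT2B1. The call of MT2C_Mm was lost with a replicate block (adjusted p = 0.0628, limma).

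Counts of the older names were concentrated on few copies, which bears on how a name's total is read. Over the 4 libraries together, between 8.80% (MT2A) and 23.2% (MT2B) of the copies of a name had any count. This was 47.5% for MT2_Mm and 53.8% for MERVL-int, which include their rise in G3 Terc-/- ESCs. In the WT libraries alone, 282 and 276 of 2667 MT2_Mm copies and 515 and 490 of 2600 MERVL-int copies had a count. For MT2B these were 1834 and 1769 of 13977 copies. Of the counts of MERVL_2A-int, 50% lay on 4 copies, and the corresponding numbers were 8 for MT2A, 11 for MT2C_Mm, 12 for MT2B2, 28 for MT2B1 and 38 for MT2B. In MERVL-int, 155 copies were needed, and in MT2_Mm 62. These numbers too pool both genotypes, so that the contrast with the young names was not separated from their rise. The single copy with the most counts held 21.6% of the counts of MERVL_2A-int, 19.2% of MT2C_Mm, 14.3% of MT2B, 13.01% of MT2A, 12.3% of MT2B2 and 7.36% of MT2B1.

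Single copies were called at a fold change over 2 and an unadjusted P under 0.05 (edgeR), the cutoffs the study used for single TE loci. Of the 2348 member copies tested in G3 Terc-/- against WT ESCs, 153 (6.52%) were higher and 101 (4.30%) lower. The background was 4.79% higher and 4.01% lower among all 176114 copies tested, so the share that was lower lay near it. By adjusted p, 39 of the 2348 member copies were higher and 17 were lower. The background was 1701 copies higher (0.966%) and 1047 lower (0.595%) of 176114. Of the 39, 13 lie in the run of MT2B1 copies described below. The median log2 fold change was 0.07 over the member copies and 0.02 over all copies. For comparison, 611 of the 1110 copies of MERVL-int and MT2_Mm tested were higher and 1 was lower.

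The called copies were split by name, without a test between names. In MT2B1, 35 copies were higher and 10 lower of 270, and 17 and 3 by adjusted p. Of the 35, 15 belong to a run of copies, described below, that was chosen after the values were seen. In MERVL_2A-int, 24 were higher and 7 lower of 183, and 5 and 0 by adjusted p. The called copies of MT2B were nearly balanced, with 57 higher and 54 lower of 1198, and 10 in each direction by adjusted p. In MT2A, 9 were higher and 11 lower of 283, and 1 and 3 by adjusted p. In MT2B2, 18 were higher and 13 lower of 322, with 4 and 1 by adjusted p, and in MT2C_Mm 10 were higher and 6 lower of 92, with 2 and 0. None of the 930 copies with 5 to 9 counts in all passed by adjusted p, which so few counts hardly allow. Of 292 MERVL-int copies at these counts, 109 were higher at the cutoffs and none by adjusted p. The number of member copies that were higher fell to 100 without WT replicate 1, 54 without G3 replicate 1 and 58 without G3 replicate 2. The number that were lower fell to 61 without WT replicate 2 and to 59 without G3 replicate 1. When a library is left out, a genotype has no replicates, so that calls of single copies cannot be judged from such a fit. The calls thus rest on all 4 libraries.

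**Figure D2:**
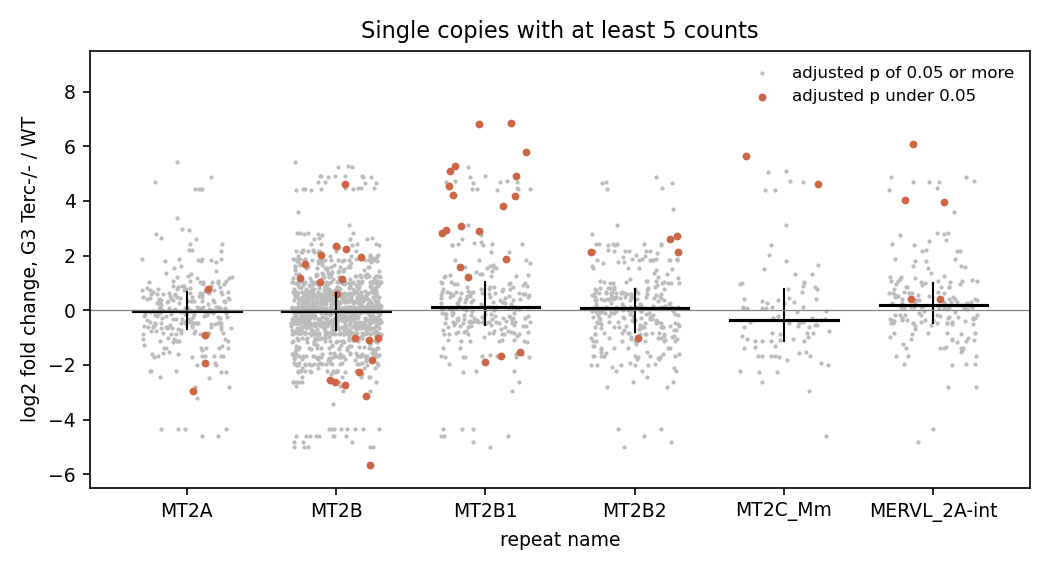
Log2 fold change (G3 Terc-/- over WT) of each of the 2348 member copies with at least 5 counts, by repeat name. Horizontal and vertical black lines mark the median and the middle 50% of copies, and coloured points are the 39 higher and 17 lower copies with an adjusted p under 0.05 (edgeR). The medians range from -0.35 (MT2C_Mm) to 0.18 (MERVL_2A-int), and the coloured points of MT2B1 reach the highest values.

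Many of the MT2B1 copies that rose had neighbouring numbers. The deposited counts give each copy a running number within its name and no position, and the order of the numbers is not given in the sources used here. After the values were seen, copies of 1 name called by adjusted p in the same direction were joined into a run where their numbers were at most 10 apart. One such run spanned MT2B1 numbers 5690 to 5723, which are 34 copies. Of these, 20 had a count and 16 were tested, and the 13 called higher by adjusted p are those from which the run was built. Of the 16 tested copies, 11 had under 5 counts in WT and passed the filter only with their G3 Terc-/- counts. The choice of the run and the filter thus largely fixed the direction of its copies, so that the values below are a description and carry no test.

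Summed over the run, the WT libraries had 38 and 28 counts and the G3 Terc-/- libraries 556 and 467. The level was 15.9 ± 3.64 (SD, n = 2) CPM in WT against 264 ± 7.40 (SD, n = 2) CPM in G3 Terc-/- ESCs, a ratio of 16.6. The run held 1.57% of the MT2B1 counts in WT and 19.5% in G3 Terc-/- ESCs. Summed over copies, MT2B1 gained 605 CPM on copies that were higher and fell by 261 CPM on copies that were lower, a net gain of 344 CPM, and the run accounted for 248 CPM. Without the run, MT2B1 had a log2 fold change of 0.08 (adjusted p = 0.183, edgeR), a value that leaving out copies chosen for their rise lowers by construction.

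Copy 5693 gained the most, with 3 and 5 counts in WT against 143 and 89 counts in G3 Terc-/- libraries (log2 fold change 4.91, standard error 0.34, adjusted p = 2.25e-44, edgeR). Copy 5706 had 9 and 4 counts in WT against 112 and 117 in G3 Terc-/- libraries (log2 fold change 4.22, adjusted p = 1.97e-39, edgeR). Copy 5704 had 10 and 4 against 63 and 50 counts, copy 5697 had 2 and 0 against 41 and 41, and copy 5717 had 2 and 1 against 40 and 31. In each of these both G3 Terc-/- libraries lay far above both WT libraries. Copy 5702 had no counts in WT against 18 and 10 in G3 Terc-/- libraries, which was at least 10.04-fold higher when WT was set at the limit of 3 counts over both libraries. Copy 5690 had none in WT against 11 and 16 counts in G3 Terc-/- libraries, at least 9.68-fold higher, and copy 5709 had none against 5 and 8, at least 4.66-fold higher. The call of copy 5709 by adjusted p was lost with a replicate block (adjusted p = 0.0744, edgeR). With a G3 library left out, the fitted log2 fold changes of copies 5690, 5702 and 5709 ranged from 5.37 to 7.19. Over the 16 tested copies of the run, the fitted log2 fold changes ranged from 2.83 to 6.86 with a median of 4.32, where the values of copies without WT counts depend on the prior count of the fit.

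The windows of equal length on either side held few counts. The 34 MT2B1 copies numbered just before it, 5656 to 5689, had 0 and 0 counts in WT against 10 and 3 in G3 Terc-/- libraries. The 1 of them that was tested was higher at the cutoffs, with a fitted log2 fold change of 5.23. Without WT counts, that copy passed the filter only with its G3 Terc-/- counts. Its value depends on the prior count of the fit and is given as a description. The 34 copies just after it, 5724 to 5757, had 4 and 3 counts in WT against 3 and 5 in G3 Terc-/- libraries, with 1 tested at a log2 fold change of -0.42.

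**Figure D3:**
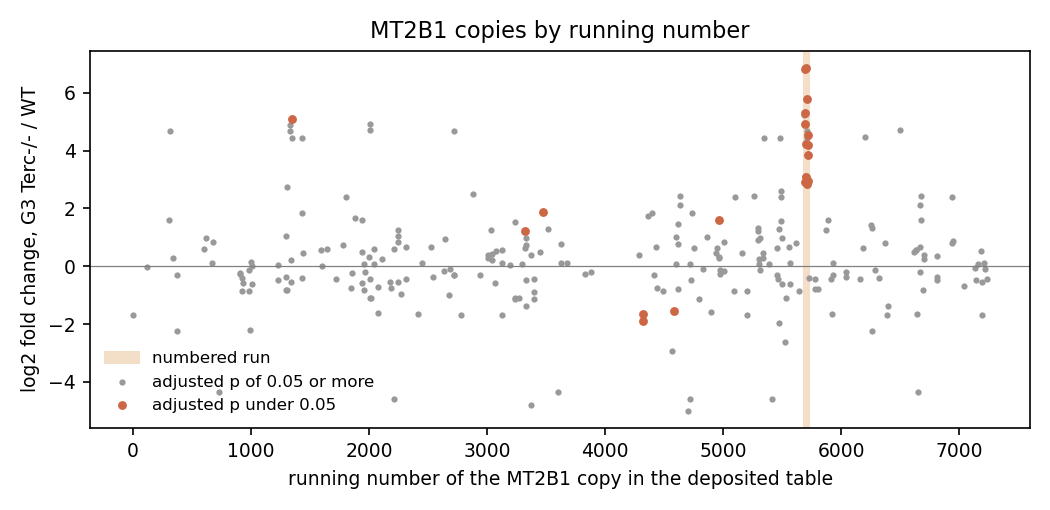
Log2 fold change (G3 Terc-/- over WT) of the 270 tested MT2B1 copies against their running number. Coloured points had an adjusted p under 0.05 (edgeR), and the shaded band marks numbers 5690 to 5723, where 13 of the 17 copies called higher by adjusted p lie.

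**Figure D4:**
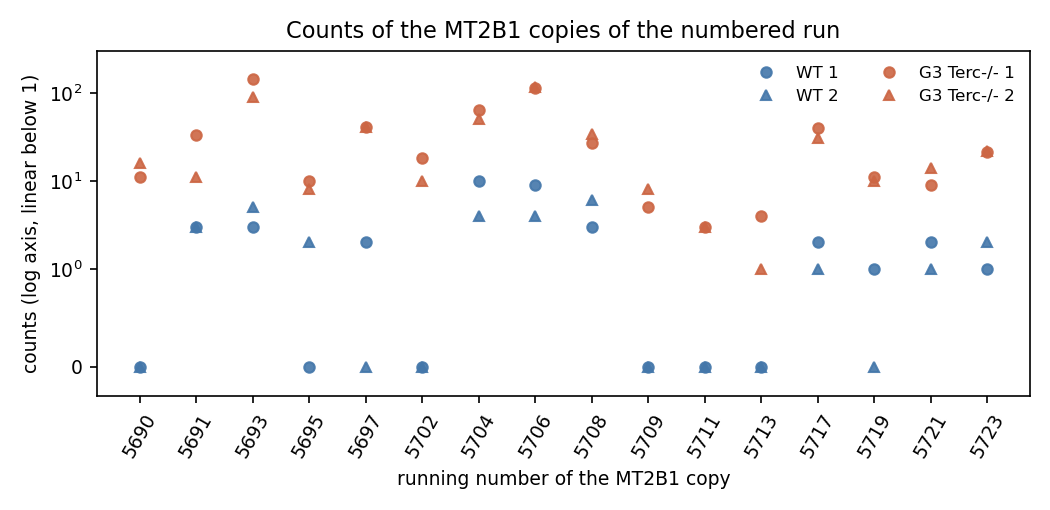
Counts of the 16 tested MT2B1 copies of the run in each library, on a log axis that is linear below 1. Circles are replicate 1 and triangles replicate 2 of WT (blue) and G3 Terc-/- (orange) ESCs; where both replicates have equal counts the markers overlap. The copies are shown as chosen for their rise, and counts reach 143 in G3 Terc-/- and 10 in WT libraries.

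Outside the run, MT2B1 changed in both directions. Copy 1347 had 1 and 0 counts in WT against 18 and 22 in G3 Terc-/- libraries, and copy 3478 had 18 and 22 against 80 and 57. Copy 1347 passed the filter only with its G3 Terc-/- counts, so that its rise is given as a description. Copies 3326 and 4967 also rose, from 23 and 23 to 63 and 37 counts and from 8 and 12 to 30 and 27 counts. Copies 4318 and 4319, with consecutive numbers, fell together, from 66 and 68 to 14 and 25 counts and from 73 and 72 to 10 and 26 counts. Copy 4588 fell from 53 and 53 to 21 and 13 counts. The MT2B1 copy with the most counts, 1600, had 190 and 170 in WT against 168 and 166 in G3 Terc-/- libraries (log2 fold change -0.01, standard error 0.14, adjusted p = 0.976, edgeR). Copy 2691 had 66 and 95 against 79 and 60, and copy 6701 had 68 and 82 against 89 and 77, and neither passed the test.

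In MERVL_2A-int the change lay largely on abundant copies. Copies 3654 and 3655 had 458 and 447 and 377 and 388 counts in WT, and 589 and 546 and 501 and 458 counts in G3 Terc-/- libraries. Each had a log2 fold change of 0.43, with adjusted p = 0.0049 for copy 3654 and 0.00898 for copy 3655 (edgeR), below the fold change of 2 that a called copy needed. The most abundant copy, 260, had 609 and 819 counts in WT against 874 and 724 in G3 Terc-/- libraries (log2 fold change 0.26, standard error 0.10, adjusted p = 0.193, edgeR) and did not pass. These 3 copies held 48.5% of the counts of MERVL_2A-int. Without them its log2 fold change was 0.14 (adjusted p = 0.0876, edgeR), and the name no longer passed.

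Of the rare MERVL_2A-int copies, 3 rose by adjusted p. These 3 had under 5 counts in WT and passed the filter only with their G3 Terc-/- counts, so that their rise is given as a description. Copy 929 had none in WT against 7 and 9 in G3 Terc-/- libraries, at least 5.74-fold higher. Copy 3004 had 1 and 0 counts against 12 and 7, and copy 3286 had 0 and 1 against 9 and 9. No MERVL_2A-int copy was lower by adjusted p, and 7 were lower at the cutoffs. With a library left out, the log2 fold change of copy 929 ranged from 5.84 to 6.31 and that of copy 3654 from 0.40 to 0.46. Such fits leave a genotype without replicates, so that the calls rest on all 4 libraries.

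In MT2A, 1 abundant copy rose while others fell, and the total did not pass the test. Copy 476, its most abundant, had 422 and 363 counts in WT against 662 and 593 counts in G3 Terc-/- libraries (log2 fold change 0.78, standard error 0.11, adjusted p = 9.91e-11, edgeR). This copy gained 135.8 CPM, more than the net 82.1 CPM of the whole name. Copy 3136 fell from 149 and 142 to 72 and 72 counts, copy 4375 from 32 and 37 to 1 and 7 counts, and copy 4511 from 26 and 24 to 6 and 6 counts. For copy 4375 the log2 fold change was -2.96 (SE 0.49, adjusted p = 6.18e-07, edgeR). The next most abundant copies did not pass, copy 7892 with 459 and 538 against 421 and 390 counts and copy 2200 with 408 and 468 against 379 and 286. Without copy 476 the log2 fold change of MT2A was -0.11 (adjusted p = 0.0565, edgeR), the opposite sign of the total.

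MT2B had the most abundant single copy of all members, which did not pass the test. Copy 13680 had 2291 and 2209 counts in WT against 2232 and 1919 counts in G3 Terc-/- libraries (log2 fold change -0.02, standard error 0.08, adjusted p = 0.963, edgeR). Copy 12192 had 892 and 827 against 824 and 769 counts, and copy 5388 had 416 and 467 against 420 and 391. Among the copies that rose, copy 13050 went from 1 and 1 counts to 25 and 27, copy 3505 from 10 and 11 to 51 and 43, and copy 3055 from 11 and 14 to 40 and 36. Among those that fell were copy 4517, from 3 and 10 counts to none, at least 4.03-fold lower, copy 9251 from 14 and 7 to 1 and 1, copy 9735 from 15 and 15 to 4 and 0, and copy 10907 from 11 and 17 to 1 and 3. In each of these changed copies the genotypes did not overlap. Copy 13050 had under 5 counts in WT, and the 4 that fell had under 5 in G3 Terc-/- libraries. Each of these passed the filter only with the counts of the other genotype, and their changes are given as a description. With a replicate block, copies 4517, 9251 and 10907 lost their adjusted p under 0.05, while copy 9735 kept it (edgeR).

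In MT2B2 the copy lower by adjusted p was 1803, which fell from 217 and 253 in WT to 112 and 103 in G3 Terc-/- libraries, a log2 fold change of -1.03 (edgeR). Its 3 most abundant copies, 3563, 2519 and 3621, had log2 fold changes of -0.28, -0.24 and -0.08, and none passed by adjusted p. The copies that rose again included neighbours in number. Copies 3547, 3549 and 3552 rose from 4 and 5, 1 and 4, and 6 and 3 counts in WT to 24 and 14, 17 and 13, and 24 and 14 counts in G3 Terc-/- libraries. Together with copy 3548 between them, these had 14 and 16 counts in WT against 77 and 48 in G3 Terc-/- libraries, or 7.20 ± 0.568 (SD, n = 2) and 31.9 ± 7.56 (SD, n = 2) CPM. The sum was taken over copies chosen for their rise, so that it is a description and carries no test. Copy 3429 rose from 2 and 5 to 29 and 16 counts.

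In MT2C_Mm only 2 copies passed by adjusted p, and both had almost no counts in WT. Both passed the filter only with their G3 Terc-/- counts, so that their rise is given as a description. Copy 1812 had 1 and 0 counts in WT against 17 and 12 in G3 Terc-/- libraries. Copy 1300 had 0 and 0 against 9 and 3, at least 4.30-fold higher, a call lost with a replicate block (adjusted p = 0.146, edgeR). The most abundant copy, 770, had 119 and 127 counts in WT against 184 and 123 in G3 Terc-/- libraries (log2 fold change 0.41, standard error 0.16, adjusted p = 0.228, edgeR) and did not pass. Copy 628 had 32 and 29 against 33 and 35 counts, and copy 1790 had 36 and 45 against 34 and 38. Over its 92 tested copies the median log2 fold change was -0.35, opposite in sign to the 0.10 of the summed name.

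The number of copies with at least 1 count was compared after all libraries were reduced to the TE counts of the smallest, 1805047. At that depth 3381 and 3251 member copies were detected in WT against 3512 and 3411 in G3 Terc-/- libraries, a ratio of 1.04 (p = 0.333, two-sided exact permutation test). The ratio was 1.27 for MT2C_Mm, 1.13 for MERVL_2A-int, 1.12 for MT2B1, 1.07 for MT2B2, 1.03 for MT2A and 0.995 for MT2B. In MT2B1, MT2A and MT2B the genotypes overlapped. The same ratio was 3.21 for MT2_Mm and 2.38 for MERVL-int.

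Genes of the 2-cell stage and known regulators of ERVL LTRs were read in the same libraries. Their lists were drawn up from general knowledge, but with earlier results of these data known. Of 39 genes in the 2-cell list, 34 were matched and 23 tested, and 22 rose and none fell (adjusted p under 0.05, edgeR), with a median log2 fold change of 3.46 against 0.01 for all genes, of which 21.7% were higher and 21.8% lower by this rule. Zscan4d, of the Zscan4 cluster that marks 2-cell-like ESCs, had 18 and 22 counts in WT against 243 and 234 in G3 Terc-/- libraries (log2 fold change 3.70), and Zscan4c had 25 and 26 against 221 and 165 (3.03). Gm5662 (3.91), Zscan4a (3.62), Pramel16 (3.70), Zscan4f (2.87), Gm20767 (3.46) and Usp17le (2.66) also rose. Reads of the near-identical Zscan4 paralogs may have been divided between them. Dux itself was not analysed here.

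Of the activators of ERVL LTRs, 10 were tested, with 4 higher and 5 lower at an adjusted p under 0.05 (edgeR), beside the background of 21.7% higher and 21.8% lower. Dppa2, an upstream activator of Dux, rose (2297 and 2548 counts in WT, 3804 and 3376 in G3 Terc-/-, log2 fold change 0.69), as did Tbx3 (1.81), Obox6 (1.75) and Zscan4c. Its partner Dppa4 fell by 0.13 on the log2 scale, Nelfa by 0.26, Yap1 by 0.20, Usp7 by 0.15 and Zfp281 by 0.18. The number of activators that were lower was 3 without WT replicate 1 or G3 replicate 1 and 2 without WT replicate 2. Of the 43 repressors tested, 8 were higher and 13 lower by the same rule, with a median log2 fold change of -0.07. The repressors that were higher were thus near the background of 21.7%. These shares, like those of the activators that were lower, moved with the call rule, since at a fold change of 2 none of the repressors was higher and 2 were lower, beside a background of 4.73% higher and 3.13% lower. Those 2 were Dnmt3b, a de novo DNA methyltransferase (11230 and 11596 counts in WT, 5129 and 4405 in G3 Terc-/-), and Cbx3, which encodes a heterochromatin protein that binds methylated H3K9 (3400 and 3708 against 1427 and 1318). Atrx fell by 0.72, Smchd1 by 0.71, Cbx1 by 0.59, Dnmt3a by 0.50 and Lin28a by 0.42 on the log2 scale, while Trim28, the co-repressor recruited by KRAB zinc finger proteins, rose by 0.41 and Zfp42 by 0.27. Kdm1a (0.09), Setdb1 (-0.03) and Chaf1a (-0.08), whose products are known to repress MERVL, did not pass the test. The summed level of the feeder markers, most of it Fn1, was higher in both G3 Terc-/- libraries. The part of the 2-cell genes, the regulators and the feeder markers in the levels of the MT2 and MERVL_2A copies was not tested.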

How the data were processed

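Paired-end poly(A) RNA-seq reads were aligned by the authors with STAR (mm10), and the deposited values are raw counts, not normalized, for genes and for single TE copies. Trim Galore and featureCounts also appear in the submitters' processing notes, and their versions and strand setting are not given in the sources used here. For single copies, the methods speak of reads that map uniquely.

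From the deposited counts, copies were summed by repeat name. Names and genes were filtered with filterByExpr and copies needed 5 counts over the 4 libraries. Each table was fitted whole with edgeR 4.0.16 (quasi-likelihood test after TMM, with genotype alone in the model) under R 4.3.3, with Benjamini-Hochberg adjustment over all features tested. Fitted fold changes include TMM factors (0.982 and 0.983 in WT, 1.02 and 1.01 in G3 Terc-/- libraries), while printed CPM are scaled by TE counts without them. Differences between names used limma 3.58.1 on log2 CPM (prior count 2). Of 24116 NCBI gene identifiers, 24061 were matched to symbols of GRCm38. Replicates differed by more than sampling noise (chi-square per repeat name 1.91 in WT and 2.85 in G3 Terc-/-).

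The text names all 6 repeat names, the 3 copies with most counts of each, the 5 highest and 5 lowest copies by adjusted p, Terc, the 3 genes of smallest p of each list (2-cell genes, activators, repressors, ESC and feeder markers), up to 5 more of the 2-cell, activator and repressor lists, and some known regulators. Further copies, Col1a1 and Lum were chosen after their values were seen. The members and lists were chosen with earlier results of these data known. Alternatives were DESeq2 1.42.0, its size factors, a replicate block, other filters and call rules, scaling by gene counts, a prior count of 0.5, abundant copies left out and each library left out. The fits were tested on simulated counts. Counting error alone underlies the limit of 3 counts at a count of 0. No repeat sequences or positions were used here. Figures were drawn with matplotlib 3.10.9.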

Additional observations from a re-analysis of the deposited data

How the results depend on the processing

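With 2 libraries per genotype from 1 line each, and most copies at few counts, small changes of single copies were beyond reach at this depth. MERVL_2A-int and MT2B1 passed as higher by adjusted p in every fit with DESeq2, its size factors, a replicate block, no filter or gene scaling. Calls of names cannot be judged with a library left out either, since a genotype then has no replicates. In those fits the log2 fold changes were 0.18 to 0.28 for MERVL_2A-int and 0.36 to 0.38 for MT2B1. At the fold cutoff of 1.5 neither passed (log2 fold changes 0.23 and 0.37). MERVL_2A-int fell to 0.14 without its 3 most abundant copies and MT2B1 to 0.082 without the numbered run. MT2A was -0.11 without its most abundant copy and -0.043 without the top 3. MT2B was 0.042 with gene scaling and -0.053 to -0.0040 with a library left out. MT2B2 was -0.14 to -0.073 with a library left out (-0.12 without G3 replicate 1). Without the run, the changes minus that of MT2B1 were 0.15 (MERVL_2A-int), -0.073 (MT2A), -0.11 (MT2B), -0.19 (MT2B2) and 0.020 (MT2C_Mm). None of these passed (adjusted p = 0.146 to 0.871, limma). The fits without the run or without the top 3 copies, and the differences to MT2B1, were chosen after seeing the data, and leaving out copies chosen for their rise lowers the change of MT2B1 by construction.

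Member copies that were higher, 153 in the report, numbered 62 with DESeq2, 51 with filterByExpr, 39 by adjusted p and 54 to 113 with a library left out. Those lower, 101, numbered 20, 26 and 17, 67 with at least 10 counts, and 59 to 72 with a library left out. The share of member copies that were higher stayed above that of all copies in each of these fits, for example 2.64% against 1.6% with DESeq2. The share that were lower lay on either side of that of all copies, for example 0.852% against 1.01% with DESeq2. With a library left out, a genotype has no replicates, and calls of single copies cannot be judged. Copies that had not passed changed sign. Under gene scaling, MT2B copies 5388, 12192 and 13680 were at 0.0066, 0.020 and 0.0088 and MT2B1 copy 1600 at 0.021 on the log2 scale. With a library left out they ranged from -0.087 to 0.047, -0.079 to 0.063, -0.061 to 0.025 and -0.10 to 0.092, MT2B1 copy 2691 from -0.34 to 0.15 and MT2C_Mm copy 1790 from -0.23 to 0.094.

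At a fold cutoff of 2, the lists had 0 activators lower, 0 repressors higher and 2 lower, 2 ESC markers higher and 0 lower, and 1 feeder marker higher and 0 lower. DESeq2 called 4 feeder markers higher and 0 lower. With a library left out, 2 to 5 activators were lower, 3 to 17 feeder markers were higher and 0 to 3 lower. Causes of these moves were not tested.

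Replicate numbers are shared between genotypes, but no label ties them to a shared culture. Deviations of libraries with the same number correlated at 0.06 over genes and -0.05 over names. With the replicate block, 94 member copies were higher and 49 lower, and the change of MT2C_Mm minus that of MT2B1 (-0.27) had an adjusted p of 0.0628 (limma).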

Other observations

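Neighbouring numbers were associated beyond the MT2B1 run. Over 553 pairs of tested member copies of 1 name with consecutive numbers, the Pearson correlation of their log2 fold changes was 0.31, and it was 0.29 over the 551 pairs left without the run. Over 51195 such pairs of all TE copies it was 0.25. The pairs share libraries and depth, and the values are a description of these 4 libraries. A further 2 member runs met the same rule as the one in MT2B1 and rose (MERVL_2A-int 3654 to 3655 and MT2B2 3547 to 3552), and 1 fell (MT2B1 4318 to 4319). The rule joins copies called in the same direction, so that the direction of a run was fixed by its choice.

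Among 47 names of the MaLR group (ORR1 and MTA to MTE), a further set of LTRs related to ERVL, 15 were higher and 3 lower by adjusted p (edgeR), beside 13.2% and 11.6% of all names, with a median log2 fold change of 0.07. Of 12668 MaLR copies tested, 714 (5.64%) were higher and 507 (4.002%) lower at the cutoffs for single copies, beside the 4.79% and 4.01% of all copies.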
